A study of Mus musculus with 10 samples.

Results

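The 43 genes described here code for the acid hydrolases of the lysosome, the cofactors they need, the main proteins of the lysosomal membrane, and a few proteins that switch on or deliver them. Each gene was read from probes annotated to exactly 1 gene symbol, and where a gene had several such probes the one with the highest mean was used. All 43 genes were measured, of 19661 genes on the arrays. Only Arsb had more than 1 probe. The data are whole-adrenal RNA profiles of 10 mice on Affymetrix expression arrays, 1 array per mouse. The 5 KO mice lacked the transcription factor gene Crem (Crem-/-), and the 5 WT mice were its wild-type counterparts. Both genotypes shared a mixed background, 129Pas x C57Bl/J, and the mice were 8 weeks old, untreated, and killed at lights on (circadian time 0 h). Sex is not given in the labels used here. The arrays fell into 4 labelled batches. Batch 1 held KO 1, KO 2 and WT 1, batch 2 held KO 3 and KO 4, batch 3 held KO 5, WT 2, WT 3 and WT 4, and batch 4 held WT 5 alone. The question put to the lysosomal genes was whether their levels differed between KO and WT adrenals.

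Lysosomes digest proteins, lipids, glycans and glycogen that reach them by endocytosis and autophagy. Most of their enzymes are made in the endoplasmic reticulum, tagged with phosphorylated mannose in the Golgi and carried to the lysosome by receptors for that tag, and many of their genes carry an E-box in the promoter that TFEB and its relatives bind. In the adrenal cortex lysosomes take part in releasing cholesterol from internalised lipoproteins, and resident macrophages are particularly rich in them. Loss of single hydrolases causes lysosomal storage diseases.

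Levels are log2 RMA values, a scale on which a difference of 1 is a doubling. RMA corrects background, brings all arrays to one distribution and summarises the probes of a transcript. Array medians lay between 7.17 and 7.25, and arrays correlated with each other at 0.908 to 0.992 (Pearson, across probes). Crem itself averaged 7.36 ± 0.51 on the KO arrays against 7.54 ± 0.37 on the WT arrays (± is the SD, n = 5 each), with overlapping groups, so its probe did not check the genotype labels. The 10 adrenal cortex markers averaged 12.19 to 12.76 on KO arrays and 12.60 to 12.80 on WT arrays, far above the array medians. Chromaffin markers averaged 7.80 on KO 1, against 10.52 to 11.06 on the other KO arrays and 10.41 to 11.16 on WT arrays. Adipocyte markers averaged 12.48 (KO 1) and 12.25 (KO 3), where the remaining KO arrays had 8.19 to 9.28 and WT arrays 8.88 to 10.55. KO 1 also carried liver and pancreas markers at a mean of 10.77, with 6.49 to 8.30 on the remaining KO arrays and 6.67 to 7.73 on WT arrays. KO 2, KO 5 and WT 3 stood apart on the first principal component of all probes, which held 53.8% of the variance, with scores of 60.7 to 69.4, against -54.0 to 17.4 on the other 7 arrays. In bulk tissue, fewer cells of a type and less RNA per cell cannot be told apart.

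The promoters of the lysosomal genes are shown first because the E-box bound by TFEB and the CRE bound by CREM and its relatives can be read in them. RefSeq promoter windows (GRCm38.p6, 250 bases before to 50 after the transcript start) were found for 39 of the 43 genes, in 45 windows. Ctsb, Ctsh, Asah1 and Galns are named only. The E-box CACGTG, which reads the same on both strands, lay in the windows of 13 of 39 genes (33.3%), against 8.09% of all 27025 genes with a window and 9.47% of those also on the arrays. The longer palindrome TCACGTGA, which contains CACGTG, lay in 5 of 39 (12.8%), against 1.12% of all genes with a window and 1.5% of those also on the arrays. The full CRE TGACGTCA lay in 1 of 39 (2.56%), against 2.03% of all genes with a window and 2.71% of those also on the arrays. The shorter TGACG on either strand, which the full CRE contains, lay in 9 of 39 (23.1%), against 23% and 27.8%. A match is a description of the letters and not a bound site. The following stretches show the genes with the longest E-box, the gene with the full CRE, and Lamp1, whose window held 4 copies of CACGTG. Capitals mark the motif, which is TCACGTGA except in Gusb (TGACGTCA) and Lamp1 (CACGTG).
Ctsa (chr2:164833734-164833792, forward strand): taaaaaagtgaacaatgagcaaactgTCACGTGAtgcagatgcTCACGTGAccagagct
Ctsd (chr7:142387893-142387952, reverse strand): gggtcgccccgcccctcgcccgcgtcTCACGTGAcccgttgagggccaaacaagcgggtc
Gla (chrX:134601167-134601255, reverse strand): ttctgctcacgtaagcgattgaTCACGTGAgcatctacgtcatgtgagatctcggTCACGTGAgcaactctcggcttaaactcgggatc
Cln3 (chr7:126583325-126583384, reverse strand): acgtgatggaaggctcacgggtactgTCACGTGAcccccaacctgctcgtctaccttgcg
Mcoln1 (chr8:3500447-3500506, forward strand): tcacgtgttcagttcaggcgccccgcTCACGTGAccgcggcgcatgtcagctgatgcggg
Lamp1 (chr8:13159074-13159177, forward strand): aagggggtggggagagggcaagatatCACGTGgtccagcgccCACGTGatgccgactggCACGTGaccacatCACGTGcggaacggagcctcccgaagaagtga
Gusb (chr5:130003030-130003079, reverse strand): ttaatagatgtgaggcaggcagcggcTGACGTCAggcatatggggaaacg

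These sequences belong to a protease that also shields other hydrolases (Ctsa), the main aspartic protease (Ctsd), the alpha-galactosidase (Gla), a membrane protein lost in juvenile Batten disease (Cln3), the lysosomal calcium channel (Mcoln1), a major membrane glycoprotein (Lamp1) and beta-glucuronidase (Gusb). The 5 genes with TCACGTGA differed between KO and WT by -0.18 to 0.08 on the log2 scale, with a median of -0.04. The median was -0.14 over the 34 genes without it. For CACGTG the median was -0.11 over the 13 genes with it and -0.11 over the 26 without it. Gusb, with the full CRE, differed by -0.20 (SE 0.21). These are descriptions with no test.

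Most of the lysosomal genes gave high array values. By mean level over 10 arrays, 25 of 43 lay at or above the 90th percentile of all genes and only 1 below the 50th. Psap, which codes for the precursor of the saposins that help enzymes reach membrane lipids, averaged 13.59 ± 0.10 in KO and 13.62 ± 0.10 in WT and was the highest of the 43 on all 10 arrays. The cysteine protease Ctsb (12.86 ± 0.16 in KO, 12.88 ± 0.18 in WT) and the aspartic protease Ctsd (12.67 ± 0.42 in KO, 12.59 ± 0.20 in WT) came next, each with overlapping groups. The protease of bone resorption, Ctsk, was the lowest on all 10 arrays, at 7.20 ± 0.23 in KO and 7.36 ± 0.19 in WT. Galc, the galactosylceramidase, and Galns, a sulfatase of keratan and chondroitin sulfate, lay just above the middle of all genes, at percentiles 54.7 and 55.1. The order is one of array values and depends on each probe's response. Here and below, ± is the SD over 5 arrays of a group.

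Between KO and WT, none of the 43 genes passed the test. In limma across all 25664 probes, 0 were called at an adjusted p under 0.05 (0%), and every lysosomal gene had an adjusted p of 1.00. At an unadjusted p under 0.05, 878 probes lay below that limit (3.42%), and by gene 2.88% of all genes were lower and 0.732% higher in KO. Of the lysosomal genes 1 was lower at that limit (2.33%), Acp2, and 0 were higher, a share near the background. In all 43 the KO and WT levels overlapped, where 0.498% of all genes did not overlap with KO lower and 0.219% with KO higher. The sign leaned one way, with 37 of 43 differences below 0 (86%) and a median of -0.12. Across all genes 53.2% were below 0 with a median of -0.01, and among the 10777 genes at least as bright as the dimmest lysosomal gene 66.8% were below 0 with a median of -0.08. Genes of one set move together across arrays, so the 37 are not independent counts. Marker lists of cell types went both ways. Below 0 lay 16 of 19 for macrophages (median -0.16), 9 of 9 for endothelium (median -0.34) and 9 of 10 for capsule and stroma (median -0.21). So did 10 of 11 for chromaffin cells (median -0.70) and 9 of 10 for adrenal cortex (median -0.11). Above 0 lay 11 of 11 for adipocytes (median 0.53), 8 of 8 for liver and pancreas (median 1.28) and 4 of 5 for lymphocytes (median 0.18). Red blood cell markers (2 of 2, median 0.35) and 3 of 5 kidney markers (median 0.00) were also above 0. Several of these signs changed without KO 1 and KO 3. Below 0 then lay 11 of 11 adipocyte markers (median -0.90) and 5 of 8 for liver and pancreas (median -0.11). The chromaffin median was -0.13 with 7 of 11 below 0, and 4 of 10 adrenal cortex markers were below 0. Endothelium kept 9 of 9 below 0 (median -0.25) and capsule and stroma 9 of 10 (median -0.31). The part of any cell type in the lean was not tested. Endothelial markers averaged 10.04 to 10.50 on KO arrays and 10.26 to 10.82 on WT arrays, and capsule and stroma markers 9.51 to 10.05 on KO arrays and 9.76 to 10.02 on WT arrays. Without KO 2, KO 5 and WT 3, 10 of 19 macrophage markers lay below 0 (median -0.02). Without KO 1 and KO 3, 17 of 19 did (median -0.38), and with batch as a fixed block 15 of 19 (median -0.28). The lean also varied with the arrays used. Leaving out 1 array at a time left 29 to 38 negative, with medians of -0.21 (without WT 3) to -0.07 (without WT 2), and without KO 4 the median was -0.20. With batch as a fixed block 37 were negative and the median was -0.26, against 59.9% of all genes below 0 and 64.3% of the genes at least as bright, with medians of -0.06 and -0.15. As a random block 36 were negative with a median of -0.17, against 55.6% of all genes and 67.3% of the bright ones, with medians of -0.02 and -0.09. The fixed block put 3 of the 43 lower (Arsb, Galns and Gaa) and 1 higher (Lamp2) at an unadjusted p under 0.05, where 7.5% of all genes were past that limit in either direction. Without KO 2, KO 5 and WT 3, 30 were negative with a median of -0.09, where 47.7% of all genes were below 0. Among the genes at least as bright 61.7% were below 0 in that fit, also with a median of -0.09.

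**Figure D1:**
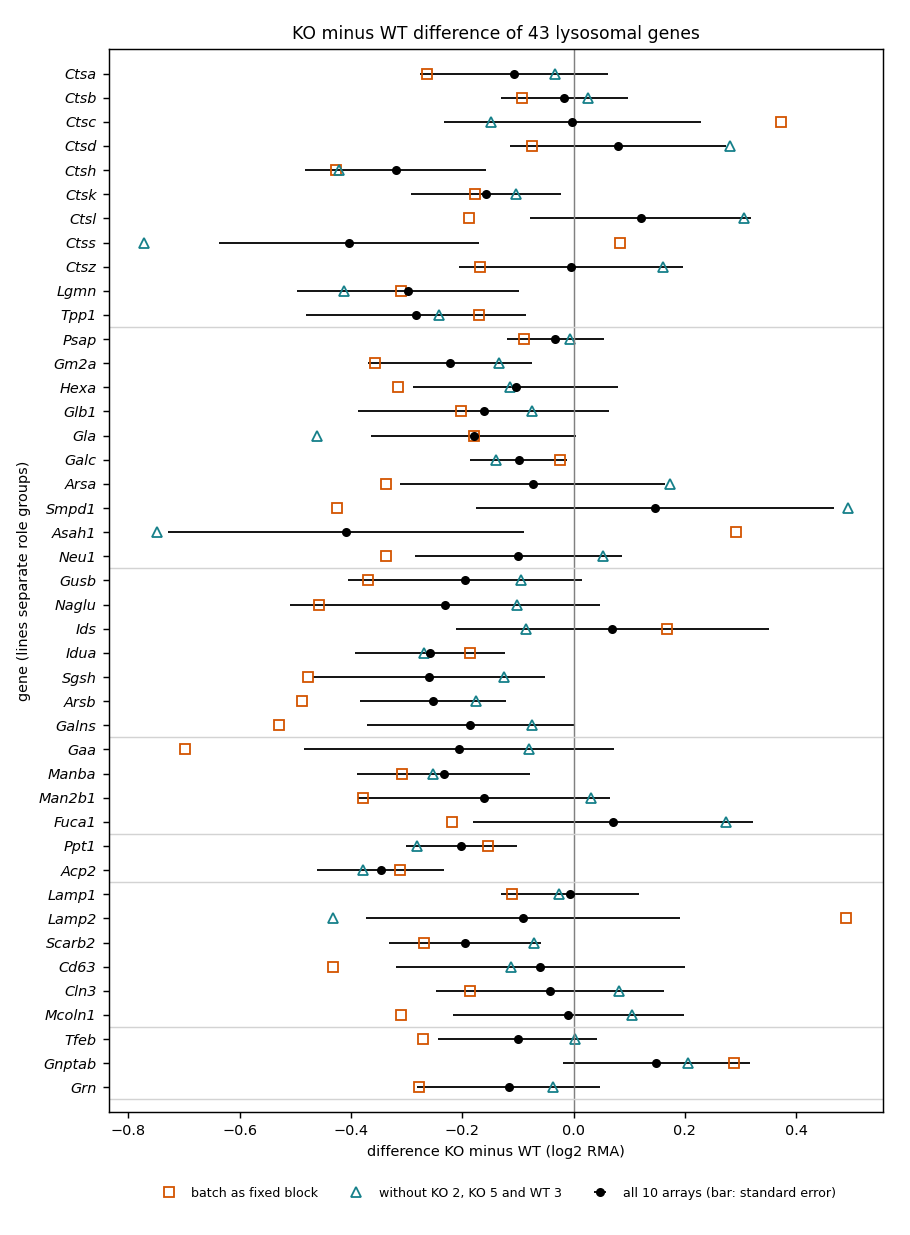
KO minus WT difference of each of the 43 genes (log2 RMA, x axis), grouped by role from proteases at the top to regulators at the bottom. Black points are all 10 arrays with the standard error, open squares have batch as a fixed block, and open triangles leave out KO 2, KO 5 and WT 3. Most black points lie left of 0, with a median of -0.12. The open square lies across 0 from the black point in 8 genes, among them Ctss, Asah1 and Lamp2. The open triangle does so in 9 other genes.

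Acp2, the lysosomal acid phosphatase, had the smallest p of the 43. Its levels were 10.23, 10.19, 10.41, 10.55 and 10.46 on KO arrays 1 to 5, and 10.61, 10.86, 10.47, 10.73 and 10.90 on WT arrays 1 to 5. KO 4 reached above WT 3, and the remaining KO arrays lay below every WT array. The means were 10.37 ± 0.15 in KO and 10.71 ± 0.18 in WT, a difference of -0.35 (SE 0.11, limma unadjusted p = 0.012, adjusted p = 1.00). An exact two-sided permutation test over all choices of 5 arrays gave p = 0.0159, where the smallest possible was 0.00794. The difference was -0.40 within batch 1, -0.23 within batch 3, -0.31 with batch as a fixed block and -0.38 without KO 2, KO 5 and WT 3. Ppt1, the thioesterase that strips palmitate from proteins, was next to it in kind. Its levels were 10.86, 10.87, 10.94, 11.01 and 11.06 on KO arrays 1 to 5, and 11.14, 11.26, 10.87, 11.18 and 11.29 on WT arrays 1 to 5. WT 3 lay inside the KO range, and the other 4 WT arrays lay above every KO array. The difference was -0.20 (SE 0.10, limma unadjusted p = 0.0687, adjusted p = 1.00), with -0.27 within batch 1 and -0.05 within batch 3.

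**Figure D2:**
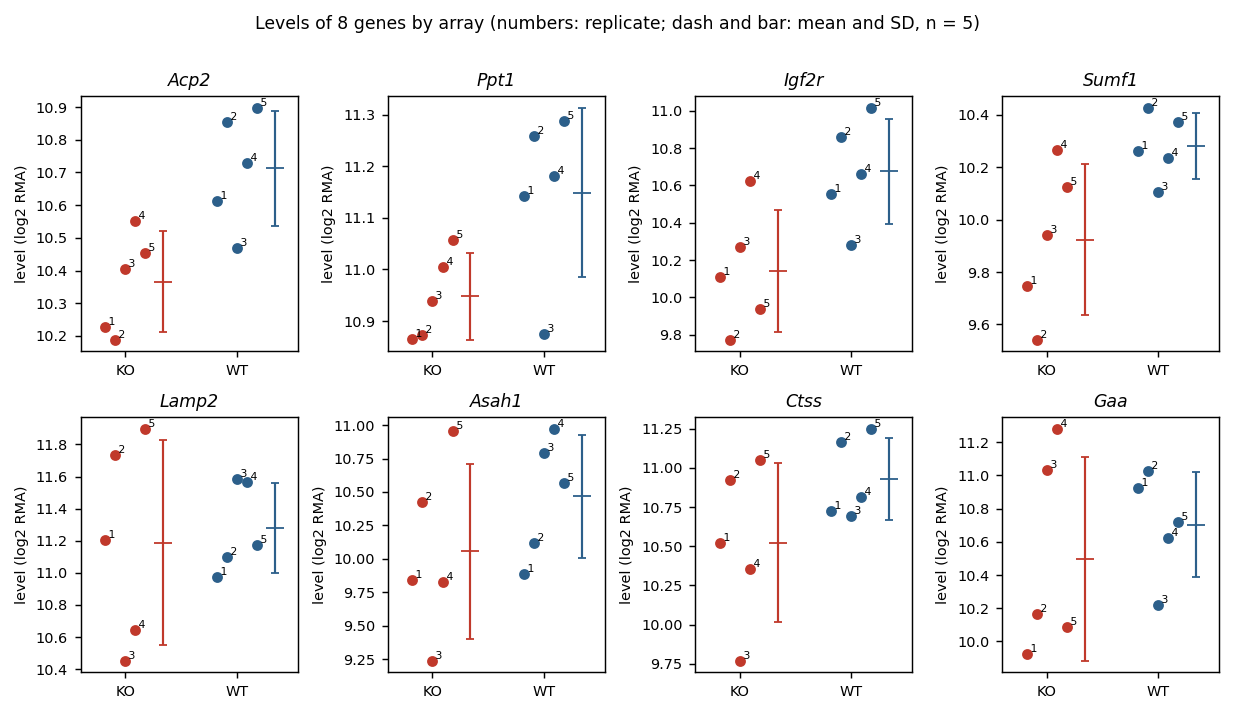
Log2 RMA level of 8 genes on each array, KO left of WT, with points numbered by replicate and each group's mean and SD (n = 5) at its right. In Acp2 the KO points lie between 10.19 and 10.55 and the WT points between 10.47 and 10.90, while in Lamp2 and Asah1 KO 2, KO 5 and WT 3 lie above their group's mean and in Gaa below it.

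Among the 11 proteases, 9 differences were below 0 and 0 passed the test, with a median of -0.11. Ctsh, an aminopeptidase, stood at 10.82, 10.97, 10.89, 11.44 and 11.02 on KO arrays 1 to 5, and at 11.56, 11.48, 10.85, 11.35 and 11.48 on WT arrays 1 to 5. KO 4 lay among the WT arrays and WT 3 among the KO arrays. It differed by -0.32 (SE 0.16, limma unadjusted p = 0.0767, adjusted p = 1.00) and by -0.67 within batch 1 and -0.21 within batch 3. Lgmn, the asparaginyl endopeptidase that trims other cathepsins, stood at 10.88, 11.42, 11.61, 11.88 and 11.58 on KO arrays 1 to 5, and at 11.64, 12.12, 11.38, 11.69 and 12.01 on WT arrays 1 to 5. KO 1 was well below the rest. The difference of -0.30 (SE 0.20) was -0.15 without that array.

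Ctss, the protease that cuts the invariant chain in antigen-presenting cells, had the largest negative difference of the proteases. Its levels were 10.52, 10.92, 9.77, 10.35 and 11.05 on KO arrays 1 to 5, and 10.72, 11.16, 10.69, 10.81 and 11.25 on WT arrays 1 to 5. KO 3 was the lowest and KO 2 and KO 5 lay among the WT arrays. The difference of -0.40 (SE 0.23) was 0.08 with batch as a fixed block, -0.00 within batch 1 and 0.16 within batch 3. Batch 2, with KO 3 and KO 4, held no WT array, so those 2 arrays could not be compared within their batch. Without KO 2, KO 5 and WT 3 the difference was -0.77 (limma unadjusted p = 0.00627, over all genes 13.2% under 0.05 in that fit).

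The other proteases differed less. Tpp1, which removes tripeptides, differed by -0.28 (SE 0.20), Ctsk by -0.16 (SE 0.13) and Ctsa by -0.11 (SE 0.17). Ctsb, Ctsz (a carboxypeptidase) and Ctsc (which activates serine proteases of granules) lay within 0.02 of 0. Ctsd (0.08, SE 0.19) and the endopeptidase Ctsl (0.12, SE 0.20) were above 0. Ctsd was highest on the arrays richest in adipocyte markers, at 13.18 on KO 3 and 12.92 on KO 1. Ctsl was highest on KO 1 (11.77), but on KO 3 (11.21) it lay near KO 4 (11.22) and below WT 1 (11.44). The part of adipocytes in these levels was not tested. Ctsc ranged widely within KO, between 9.61 on KO 4 and 10.87 on KO 1, against 10.04 to 10.73 in WT.

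Of the 10 genes of sphingolipid degradation, 9 differences were below 0 and 0 passed the test, with a median of -0.10. Gm2a, the activator that presents ganglioside to hexosaminidase, stood at 12.17, 11.90, 12.39, 12.75 and 12.29 on KO arrays 1 to 5, and at 12.60, 12.56, 12.33, 12.50 and 12.62 on WT arrays 1 to 5. The WT arrays were close together inside a wider KO range. It differed by -0.22 (SE 0.15), and its partner Hexa, a hexosaminidase subunit, by -0.10 (SE 0.18). Galc stood at 7.69, 7.80, 7.86, 7.63 and 7.83 on KO arrays 1 to 5, and at 7.71, 7.98, 7.83, 7.91 and 7.88 on WT arrays 1 to 5. It had the least spread of the 43 after Psap and differed by -0.10 (SE 0.09).

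Asah1 and Smpd1, the acid ceramidase and the acid sphingomyelinase that makes its substrate, varied most over the arrays, and in opposite directions. Asah1 stood at 9.84, 10.42, 9.24, 9.83 and 10.96 on KO arrays 1 to 5, and at 9.88, 10.12, 10.79, 10.97 and 10.57 on WT arrays 1 to 5. Smpd1 stood at 10.89, 9.82, 11.21, 10.80 and 9.66 on KO arrays 1 to 5, and at 10.72, 10.61, 9.75, 10.07 and 10.50 on WT arrays 1 to 5. KO 3 was the lowest array for Asah1 and the highest for Smpd1, and KO 5, WT 3 and WT 4 were high for Asah1 and low for Smpd1. Asah1 differed by -0.41 (SE 0.32) and by 0.29 with batch as a fixed block. Smpd1 differed by 0.15 (SE 0.32) and by -0.43 with batch as a fixed block. With batch as a random block Asah1 differed by -0.25 and Smpd1 by 0.00, so the signs turned with the fixed block and within batches 1 and 3 and not with the random block. Of the others, the galactosidases Gla and Glb1 differed by -0.18 (SE 0.18) and -0.16 (SE 0.23), the sialidase Neu1 by -0.10 (SE 0.19), the sulfatidase Arsa by -0.07 (SE 0.24) and Psap by -0.03 (SE 0.09).

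The 7 enzymes of glycosaminoglycan degradation had the most negative median of the role groups with over 2 genes, at -0.23, with 6 below 0 and 0 past the test. That rank held with batch as a fixed or random block. It was lost within batch 1, within batch 3 and without KO 2, KO 5 and WT 3. Their mean level was 8.54 to 9.19 on KO arrays and 8.77 to 9.18 on WT arrays. Arsb, the sulfatase of dermatan sulfate, stood at 9.21, 9.18, 9.44, 9.57 and 9.02 on KO arrays 1 to 5, and at 9.71, 9.73, 9.36, 9.36 and 9.52 on WT arrays 1 to 5. KO 3 and KO 4 lay among the WT arrays and the other KO arrays below them. The difference was -0.25 (SE 0.13, limma unadjusted p = 0.0808, adjusted p = 1.00), its other probe gave -0.20 (SE 0.12), and with batch as a fixed block it was -0.49. Idua, the iduronidase, stood at 7.70, 7.88, 7.96, 8.36 and 8.19 on KO arrays 1 to 5, and at 8.03, 8.41, 8.28, 8.32 and 8.34 on WT arrays 1 to 5. It differed by -0.26 (SE 0.14), with KO 1 lowest and KO 4 and KO 5 inside the WT range.

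Sgsh, the heparan sulfamidase, stood at 8.35, 7.97, 8.72, 8.98 and 8.18 on KO arrays 1 to 5, and at 8.66, 9.00, 8.27, 8.63 and 8.94 on WT arrays 1 to 5. Naglu, the glucosaminidase of the same chain, stood at 9.28, 8.69, 9.84, 10.17 and 9.44 on KO arrays 1 to 5, and at 9.76, 10.15, 9.11, 9.58 and 9.97 on WT arrays 1 to 5. In both genes KO 2 was lowest and the genotypes overlapped over most of their range. Sgsh differed by -0.26 (SE 0.21), Naglu by -0.23 (SE 0.28), Galns by -0.19 (SE 0.19) and Gusb by -0.20 (SE 0.21). Ids, the iduronate sulfatase, ran against the others. It was highest on KO 2 (9.71) and WT 3 (9.59), lowest on WT 5 (8.38), and differed by 0.07 (SE 0.28). Of the 5 sulfatases here (Arsa, Arsb, Galns, Ids and Sgsh), 4 had a difference below 0, against 37 of all 43 lysosomal genes (86%). Sumf1, whose product activates sulfatases, is given with the other lysosomal genes below, and a link between it and their RNA levels was not tested.

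In the 4 enzymes of glycan and glycogen breakdown, 3 differences were below 0 and 0 passed the test. Gaa, the acid glucosidase of glycogen, stood at 9.92, 10.17, 11.03, 11.28 and 10.09 on KO arrays 1 to 5, and at 10.93, 11.03, 10.22, 10.62 and 10.72 on WT arrays 1 to 5. The KO arrays split between 2 from batch 2 above 11 and 3 near 10, and WT 3 was lowest in WT. The difference of -0.21 (SE 0.28) was -0.88 within batch 1, -0.53 within batch 3 and -0.08 without KO 2, KO 5 and WT 3. Manba, the beta-mannosidase, stood at 8.02, 8.26, 8.63, 8.76 and 8.43 on KO arrays 1 to 5, and at 8.60, 8.84, 8.38, 8.57 and 8.86 on WT arrays 1 to 5, a difference of -0.23 (SE 0.16). KO 1 was lowest, and the groups overlapped. Man2b1, the alpha-mannosidase, stood at 10.17, 9.20, 10.26, 10.37 and 9.83 on KO arrays 1 to 5, and at 10.22, 10.48, 9.70, 10.04 and 10.21 on WT arrays 1 to 5, a difference of -0.16 (SE 0.23). Without KO 2, its lowest array, the difference was 0.03, while within batch 3, which does not hold KO 2, it was -0.24. Fuca1, the fucosidase, differed by 0.07 (SE 0.25).

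All 6 membrane proteins had differences below 0 and 0 passed the test, with a median of -0.05. Scarb2, the receptor that carries glucocerebrosidase to the lysosome, stood at 10.38, 10.20, 10.38, 10.27 and 10.09 on KO arrays 1 to 5, and at 10.43, 10.03, 10.63, 10.76 and 10.44 on WT arrays 1 to 5. WT 2 was the lowest array and the other WT arrays lay above all KO arrays. The difference was -0.19 (SE 0.14). Lamp2, the receptor of chaperone-mediated autophagy, stood at 11.21, 11.74, 10.45, 10.65 and 11.90 on KO arrays 1 to 5, and at 10.97, 11.10, 11.59, 11.56 and 11.17 on WT arrays 1 to 5. KO 2, KO 5 and WT 3 lay above the other 7 arrays and the arrays of batch 2, KO 3 and KO 4, below them. The difference of -0.09 (SE 0.28) was 0.49 with batch as a fixed block (limma unadjusted p = 0.041, with no probe called after adjustment) and -0.43 without KO 2, KO 5 and WT 3. Its relative Lamp1 differed by -0.01 (SE 0.12).

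Cd63, a tetraspanin of late endosomes, stood at 11.73, 11.94, 11.48, 12.07 and 11.06 on KO arrays 1 to 5, and at 12.27, 12.06, 11.08, 11.33 and 11.85 on WT arrays 1 to 5. KO 5, WT 3 and WT 4 were the lowest, while WT 2, the other array of their batch, stood at 12.06. The difference was -0.06 (SE 0.26). Cln3 differed by -0.04 (SE 0.20) and Mcoln1 by -0.01 (SE 0.21). Of the remaining 3 genes, Tfeb, the transcription factor of lysosomal genes, stood at 7.85, 7.63, 8.23, 8.25 and 7.85 on KO arrays 1 to 5, and at 8.17, 8.19, 7.88, 7.87 and 8.21 on WT arrays 1 to 5, a difference of -0.10 (SE 0.14). Grn, the precursor of the lysosomal granulins, stood at 11.60, 11.26, 11.71, 11.98 and 11.42 on KO arrays 1 to 5, and at 11.78, 12.00, 11.35, 11.52 and 11.88 on WT arrays 1 to 5, a difference of -0.12 (SE 0.16). KO 2 was the lowest array for both. Gnptab, the transferase that makes the mannose tag, stood at 9.28, 8.89, 8.98, 8.34 and 8.83 on KO arrays 1 to 5, and at 8.48, 8.62, 8.93, 8.90 and 8.64 on WT arrays 1 to 5. It had the largest positive difference of the 43, 0.15 (SE 0.17), with KO 1 highest and KO 4 lowest.

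Much of the variation of the 43 genes lay between arrays of the same genotype. On KO 2, 35 of 43 lay below their own mean, and on WT 3 also 35, where 63.0% and 60.7% of all genes did. On WT 5, 38 lay above their own mean, on WT 2 36 and on KO 4 33, which left 5, 7 and 10 below it. On these arrays, in the same order, 44.98%, 42.42% and 40.34% of all genes lay below their own mean. Among the genes at least as bright as the dimmest lysosomal gene, 35.08%, 36.89% and 43.88% did. KO 2 was the lowest array for 20 of the 43 genes, where it was the lowest for 21.8% of all genes. The share among the genes at least as bright was not computed. KO 2, KO 5 and WT 3 all lay below the other 7 arrays in 11 genes (25.6%), against 18.1% of all genes and 22.9% of the genes at least as bright. These were Arsa, Ctsa, Ctsz, Galns, Grn, Gusb, Lamp1, Man2b1, Neu1, Sgsh and Smpd1, which span enzymes, a membrane protein and a granulin precursor. All 3 lay above the other 7 only in Lamp2 (2.33%), against 12.2% of all genes and 15.9% of the bright ones. The mean level of the 43 genes was 9.91 to 10.35 on KO arrays and 10.01 to 10.43 on WT arrays. The median SD of a lysosomal gene over the 10 arrays was 0.31, against 0.33 among the genes at least as bright.

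**Figure D3:**
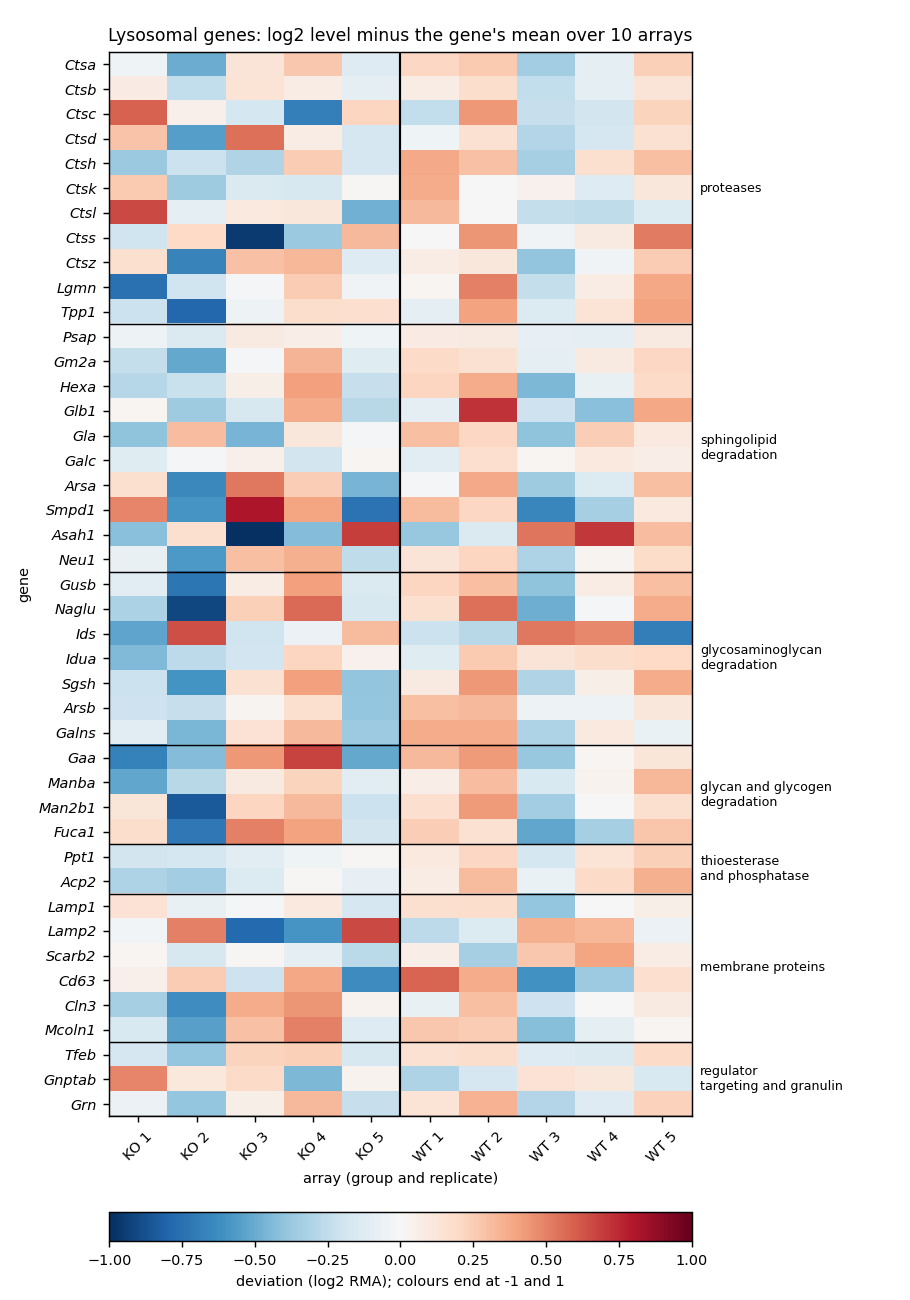
Log2 level of each of the 43 genes (rows, grouped by role) on each array (columns, KO left of WT), minus that gene's mean over 10 arrays. KO 2 and WT 3 are blue for 35 of 43 genes each and WT 5 is red for 38, while Lamp2 and Asah1 run against most other rows.

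Macrophage markers were followed beside the lysosomal genes because macrophages are rich in lysosomes. All 19 were measured, and their mean was 8.76 to 9.63 on KO arrays and 9.12 to 9.73 on WT arrays. KO 2 was lowest and WT 2 highest, as for the mean of the lysosomal genes. The genes at least as bright as the dimmest lysosomal gene were also lowest on KO 2, with a median deviation of -0.135 from their own means. That median was highest on WT 5 (0.104) and next on WT 2 (0.103). 4 lysosomal genes were set against the mean of the macrophage markers over the 10 arrays. Lamp1 gave a Pearson r of 0.62 (permutation p = 0.0553, adjusted over the 4 relations 0.221) and a Spearman rho of 0.75 (permutation p = 0.0177, adjusted 0.0708). Ctsc gave an r of 0.38 and a rho of 0.48 (permutation p = 0.276 and 0.168, adjusted 0.553 and 0.256). Lgmn gave an r of 0.29 and a rho of 0.45 (permutation p = 0.415 and 0.192, adjusted 0.553 and 0.256). Ctss gave an r of 0.05 and a rho of 0.19 (permutation p = 0.898 and 0.608, adjusted 0.898 and 0.608). None passed after adjustment with all 19 markers and all arrays. Without the MHC class II genes and Cd74, which left 15 markers, the rho of Lamp1 was 0.85 (permutation p = 0.00307, adjusted 0.0123), which passed, and its r was 0.71 (permutation p = 0.019, adjusted 0.076), which did not. After repeated quantile normalization its r was 0.38 and its rho 0.59 (adjusted permutation p = 0.697 and 0.313). Without KO 2 and WT 2, the arrays farthest from the median, r was 0.67 for Lamp1, 0.45 for Ctsc, -0.05 for Lgmn and 0.02 for Ctss. Centred within batches, with the single array of batch 4 left out, r was 0.71, 0.53, 0.13 and -0.06 in the same order, and each batch held too few arrays for a value of its own. KO 1 decided the value of Lgmn, whose r was 0.85 without it (permutation p = 0.00299, adjusted 0.012). Adjustment was over the 4 relations within a setting and not over the settings, so a pass in 1 setting is not adjusted for the others. The part of macrophages in the level of any lysosomal gene was not tested.

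**Figure D4:**
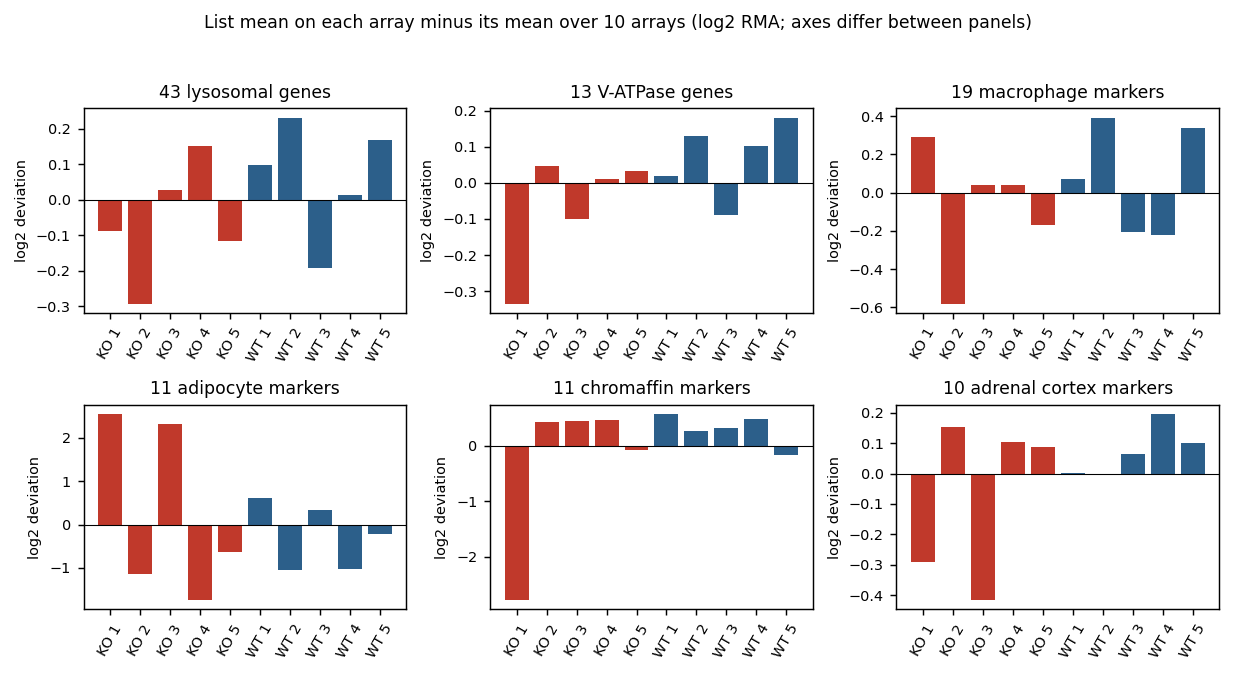
Mean log2 level of 6 gene lists on each array minus the list's mean over 10 arrays, KO bars left of WT bars, with a separate axis for each panel. The lysosomal genes and the macrophage markers are both lowest on KO 2 and highest on WT 2, the adipocyte markers are high on KO 1 and KO 3, and the chromaffin markers are low on KO 1.

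None of the other genes of the pathway passed the test, and their signs are to be read against the 66.8% of bright genes that lay below 0. Of the V-ATPase subunits, which acidify the lysosome, 13 of 16 were measured, 12 had a difference below 0 and 0 passed the test, with a median of -0.15. Their smallest p-values were those of Atp6v1c1 (-0.24, SE 0.16), Atp6v0a2 (-0.20, SE 0.14) and Atp6v1e1 (-0.15, SE 0.12). Of 38 other lysosomal genes 32 were measured, 22 were below 0 and 0 passed the test (median -0.11), with Sumf1, the protease Ctsf (-0.37, SE 0.20) and Ostm1 (-0.36, SE 0.23), a partner of the lysosomal chloride exchanger, at the smallest p. Of 16 genes of sorting and of the Tfeb family 15 were measured, 12 were below 0 and 0 passed (median -0.11), with Igf2r and the adaptor genes Ap3b1 (-0.29, SE 0.16) and Gga2 (0.31, SE 0.29) at the smallest p. Of 26 autophagy genes 24 were measured, 20 were below 0 and 0 passed (median -0.15), with the cargo receptor Nbr1 (-0.27, SE 0.16), the lipid kinase Pik3c3 (-0.26, SE 0.16) and Vmp1 (-0.21, SE 0.13), a membrane protein of autophagosome formation, at the smallest p. The lean of these lists varied with the fit. With batch as a fixed block 10 of the V-ATPase genes, 21 of the other lysosomal genes, 13 of the sorting genes and 14 of the autophagy genes were below 0, and within batch 3 the counts were 9, 18, 14 and 13 in that order. Tfe3 and Mitf, relatives of Tfeb, differed by -0.17 (SE 0.21) and 0.15 (SE 0.23).

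The receptor that carries mannose-tagged hydrolases to the lysosome, Igf2r, had the largest negative difference in these lists. Its levels were 10.11, 9.77, 10.27, 10.62 and 9.94 on KO arrays 1 to 5, and 10.55, 10.86, 10.28, 10.66 and 11.01 on WT arrays 1 to 5. KO 4 lay inside the WT range, and the other KO arrays below every WT array. It differed by -0.53 (SE 0.18, limma unadjusted p = 0.0147, adjusted p = 1.00), and by -0.64 with batch as a fixed block. Sumf1, the activating enzyme of the sulfatases, stood at 9.75, 9.54, 9.94, 10.27 and 10.12 on KO arrays 1 to 5, and at 10.26, 10.43, 10.11, 10.24 and 10.37 on WT arrays 1 to 5. KO 4 and KO 5 lay inside the WT range and the other KO arrays below it. It differed by -0.36 (SE 0.14, limma unadjusted p = 0.0286, adjusted p = 1.00), and by -0.36 with batch as a fixed block.

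The sign of the lysosomal genes was also read within the 2 batches that held both genotypes. In 29 of 43 genes the difference was below 0 over all arrays, within batch 1 and within batch 3, and so also with batch as a fixed block. The fixed block draws its difference from the arrays of these batches alone, so its sign adds no further agreement. Within batch 1, with KO 1 and KO 2 against WT 1, 37 were below 0 with a median of -0.40, where 57.3% of all genes and 62.1% of the bright ones were (median of the bright ones -0.16). Within batch 3, with KO 5 against WT 2, WT 3 and WT 4, 33 were below 0 with a median of -0.14, where 61% of all genes and 64.5% of the bright ones were (median of the bright ones -0.11). In 25 of 43 genes the difference stayed below 0 whichever single array was left out. The share of all genes with the same pattern was not computed for either the 29 or the 25.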

How the data were processed

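The authors deposited one table of log2 expression values per probe for the 10 arrays. RMA is the one tool that the submitters' processing notes name, with no version, and the sources used here do not give any batch adjustment at that step. Of 35557 rows, 25689 held values, and 25 control probes were left out, which left 25664 probes (20777 with 1 gene symbol, 232 with several, 4655 with none). Since RMA makes no detection call, no gene was classed as absent. The small number of arrays sets the precision.

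Differences are KO minus WT from limma 3.58.1 (R 4.3.3, lmFit and eBayes on all arrays with genotype alone, two-sided), with Benjamini-Hochberg adjustment across the 25664 probes and a threshold of 0.05. Batch entered other fits as a fixed block or, with a consensus correlation of 0.172, as a random block. Exact permutation tests used all choices of 5 arrays, and correlations were tested with 100000 permutations. The fit was tested on simulated data. The labels number the mice, so arrays were taken as separate animals.

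The lysosomal genes and the other lists were chosen with earlier results of these data known. Values on each array are given for the 3 genes of each role group with the smallest p (all of groups of 3 or fewer), any gene whose groups did not overlap, and the 4 genes with the largest SD. From each other list of the pathway the 3 genes with the smallest p are named; Tfe3 and Mitf, and the values on each array for Igf2r and Sumf1, were chosen after their values were seen. Alternatives covered batch, normalization, moderation, array weights, dim probes, the choice of probe and the arrays used. Promoter sequences are from RefSeq, assembly GRCm38.p6.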

Additional observations from a re-analysis of the deposited data

How the results depend on the processing

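No probe and none of the 43 genes was called after adjustment in limma under any setting run. The number of probes at an unadjusted p under 0.05, 878 over all arrays, was 1666 with array weights, 1843 with batch as a fixed block, 402 among the 12832 brightest probes, 224 within batch 1, 264 within batch 3, and 3126 without KO 2, KO 5 and WT 3. Leaving out 1 array at a time gave 503 (without WT 5) to 1462 (without KO 4), with 551 without WT 2 and 1408 without WT 3. Of the 43 differences, 37 were below 0 over all arrays, 36 with batch as a random block, 33 after repeated quantile normalization, 40 without KO 1 and KO 3, and 30 without KO 2, KO 5 and WT 3. Without KO 1 and KO 3 the median of the 43 was -0.16, where 11523 of all 19661 genes were below 0. Among the 10777 genes at least as bright 7199 were (median -0.10). No such background was computed for the repeated quantile normalization. The median of the 43, -0.12 over all arrays, was -0.40 within batch 1. The sign changed for 8 genes with batch as a fixed block, 8 within batch 1, 10 within batch 3 and 9 without KO 2, KO 5 and WT 3, and the cause was not tested. Repeated quantile normalization turned 4 (Ctsc, Lamp1, Cln3 and Mcoln1).

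The r of Ctss with the macrophage markers changed sign to -0.06 centred within batches and -0.07 after repeated quantile normalization, and was -0.14 to 0.21 with 1 array left out (-0.14 without WT 2 and also without WT 5). The r of Lgmn was -0.05 without KO 2 and WT 2, and 0.08 to 0.85 with 1 array left out, with 0.85 without KO 1. The CRE was counted in 1 of 39 genes in full and in 9 by its shorter form. No paired analysis was possible because the labels number the animals within the series and share no animal between KO and WT, so that replicate numbers here only name the arrays.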
